A study of Mus musculus with 2 samples.

Results

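The genes described here are 6 microRNA genes known for enrichment in myeloid and lymphoid cells: Mir142, Mir146, Mir146b, Mir150, Mir155 and Mir223. They were chosen by name as microglial and immune microRNAs, not by their level, though with earlier results of these data known. Each was found by gene identifier among the 2202 microRNA genes of the count tables. MicroRNA-seq was made from the hippocampus of female B6CASTF1/J mice, first-generation hybrids of C57BL/6J and CAST, at 10 days of age. The series holds 1 group of 2 libraries, each from a separate set of 3 pooled females, with no treatment named and no control group. The labels give the tissue as a layer of hippocampus and do not name cell sorting or perfusion, and RNA of all cells is counted together with that of any blood left in the tissue. Small RNA shorter than 30 nt was sequenced, and counts do not tell the C57BL/6J from the CAST allele.

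A microRNA is cut from a hairpin precursor, and 1 or both arms are loaded into an Argonaute protein, where bases 2 to 8, the seed, pair with target messages. Microglia are the resident macrophages of the brain and share many microRNAs with blood myeloid cells, while lymphocytes and neutrophils are rare in healthy brain tissue. Mir146 and Mir155 are known for opposite roles in inflammation: both follow NF-kB activity, but miR-146a dampens Toll-like receptor signalling through TRAF6 and IRAK1, and miR-155 promotes inflammatory activation, in part by lowering SOCS1 and SHIP1. Mir142 is a marker of the blood lineage, including microglia. Mir223 is abundant in neutrophils and other myeloid cells, and Mir150 in mature lymphocytes. None of the 6 is limited to these cells.

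All 6 genes were detected, and they differed in level by more than 2 orders of magnitude. Mir146 and Mir150 were the most abundant, at 950 ± 168 and 858 ± 183 CPM (SD, n = 2), where CPM is counts per 1000000 sense-strand counts on microRNA genes. Mir155 followed at 87.8 ± 5.91 CPM, Mir142 at 38.6 ± 14.9 CPM, Mir223 at 15.2 ± 4.04 CPM and Mir146b at 4.54 ± 1.52 CPM. Detected means at least 10 sense counts in each library. The same rule was met by 19.5% of the 2202 genes, and the 6 genes were named for known expression in immune cells, so nothing is read from their count.

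The mature sequences are given first, because the seeds show which of these genes could share targets and the pairs of near-identical stretches bear on how reads were counted. They are from RefSeq on GRCm38.p6, 5′ to 3′, with the seed in capitals.
miR-146a-5p: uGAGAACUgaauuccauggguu
miR-146b-5p: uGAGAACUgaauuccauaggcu
miR-146a-3p: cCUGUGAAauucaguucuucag
miR-146b-3p: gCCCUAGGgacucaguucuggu
miR-155-5p: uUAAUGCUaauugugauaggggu
miR-155-3p: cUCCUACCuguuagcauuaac
miR-142a-5p: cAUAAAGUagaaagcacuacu
miR-142a-3p: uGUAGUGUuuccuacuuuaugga
miR-223-5p: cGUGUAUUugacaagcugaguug
miR-223-3p: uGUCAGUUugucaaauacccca
miR-150-3p: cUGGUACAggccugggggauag

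These 11 mature sequences carry 10 different seeds. The 5p forms of miR-146a and miR-146b share the seed GAGAACU and are the only pair with a seed in common. No other mature sequence among the 1738 of the table shares a seed with any of the 11. For Mir150 the table held no 5p form and no hairpin, so the seed of that arm was not compared. The 5p forms of miR-146a and miR-146b are identical at 20 of 22 bases, and from 1 at the 5′ end the changes from miR-146a to miR-146b are G18A and U21C. The counts are per gene and not per arm, so the share of 5p and 3p reads was not measured.

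**Figure D1:**
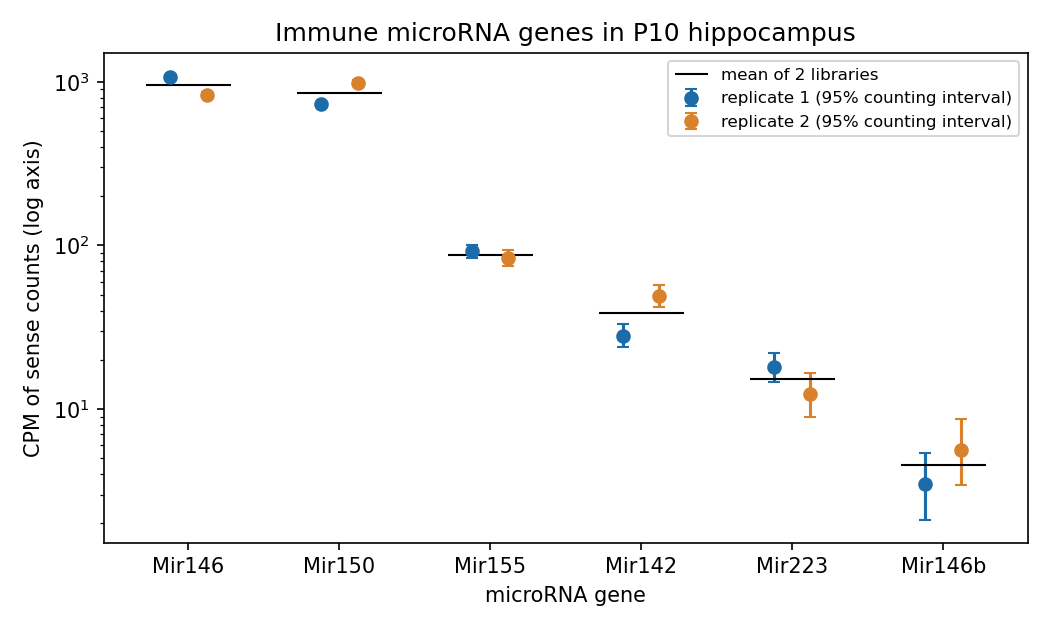
CPM of sense counts (log axis) of the 6 immune microRNA genes in each library, with exact 95% intervals for counting error and a bar at the mean of 2 libraries. Mir146 and Mir150 lie between 729 and 1069 CPM and exchange places between the libraries, and the 4 other genes lie below 100 CPM.

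Mir146, the brake on Toll-like receptor signalling, had 5855 sense counts in replicate 1 and 2963 in replicate 2, or 1069 and 832 CPM. It lies on chromosome 11 from 43374397 to 43374461 on the minus strand of GRCm38 (mm10), ENSMUSG00000065601.1. In GENCODE M21 no other gene overlaps it. The exact 95% counting intervals, 1041 to 1096 CPM and 802 to 862 CPM, did not overlap, and the gene was lower in replicate 2. At its mean, 116 of the 429 detected genes were more abundant.

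Mir146b, its paralog on chromosome 19 (46342762 to 46342870, plus strand, ENSMUSG00000070127.2), lies in an intron of Mfsd13a. It had 19 and 20 sense counts, or 3.47 and 5.61 CPM. The counting intervals of the 2 libraries, 2.09 to 5.42 and 3.43 to 8.67 CPM, overlapped. No difference between the libraries was resolved at this depth (exact binomial test, adjusted p = 0.263). Of the counts on the 2 genes with the GAGAACU seed, Mir146 held 99.7% in replicate 1 (interval 99.5% to 99.8%) and 99.3% in replicate 2 (98.97% to 99.6%). The count of Mir146 was 308 times that of Mir146b in replicate 1 and 148 times in replicate 2.

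The hairpins show where reads of the 2 paralogs can and cannot be told apart, and the longest stretch that they share is in capitals.
Mir146: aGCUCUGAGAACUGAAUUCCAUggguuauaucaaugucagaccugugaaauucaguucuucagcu
Mir146b: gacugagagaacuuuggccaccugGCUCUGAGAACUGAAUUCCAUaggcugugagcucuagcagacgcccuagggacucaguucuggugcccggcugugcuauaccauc
The shared stretch is 21 nt long and takes in 4 bases before the 5p form and its first 17 bases. A full-length 5p read therefore runs past the shared stretch into base 18, where the paralogs differ. Reads with more than 1 matching place were left out of the gene counts, and how many shortened reads of these paralogs were among them was not measured. The longest stretch that Mir150, Mir155, Mir142 or Mir223 shares with a microRNA gene elsewhere in the genome, on either strand, is 12 or 13 nt.

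Mir155, a promoter of inflammatory activation in macrophages, had 504 and 298 sense counts, or 92.0 and 83.6 CPM. It is the gene of the 6 whose libraries lay closest together, with an SD of 6.73% of the mean, and the counting intervals, 84.1 to 100.4 and 74.4 to 93.7 CPM, overlapped. An exon of its host transcript Mir155hg, a lincRNA, holds the gene on chromosome 16 (84714140 to 84714204, plus strand, ENSMUSG00000065397.1). Mir155 was itself the median of the detected genes, at 87.8 CPM. Mir146 had 11.6 times the count of Mir155 in replicate 1 and 9.94 times in replicate 2, and was the more abundant of the pair in both libraries.

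Mir142, the blood-lineage marker, had 154 and 175 sense counts, or 28.1 and 49.1 CPM. The counting intervals, 23.8 to 32.9 CPM and 42.1 to 57.0 CPM, did not overlap, and the shallower library held the higher count. The gene lies in an intron of Mir142hg on chromosome 11 (87756864 to 87756927, plus strand, ENSMUSG00000105196.1). Its hairpin is printed with both mature arms in capitals, because a second microRNA gene is annotated across it.
Mir142: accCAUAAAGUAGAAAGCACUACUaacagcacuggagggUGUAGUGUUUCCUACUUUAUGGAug
miR-142b: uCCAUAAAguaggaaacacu
The second sequence, with its own seed in capitals, is the mature form of Mir142b, on the minus strand of the same place (87756841 to 87756955, ENSMUSG00000065420.2). It is the reverse complement of 20 bases of miR-142a-3p.

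The stranded counts placed all reads of this locus on the Mir142 side. Mir142b had 0 sense counts in each library, and a 0 allows a level of up to 0.548 CPM at the depth of replicate 1 and 0.842 CPM at that of replicate 2. Its antisense counts were 154 and 175, the same numbers as the sense counts of Mir142. Counted without regard to strand, reads over 2 genes are ambiguous, and both Mir142 and Mir142b were at 0 in each library. Mir142 was thus 1 of 21 detected genes (4.90% of 429) that had no count at all in the unstranded column. The 5 other immune genes have no microRNA gene on the opposite strand and kept their counts. Antisense counts on the 6 genes numbered 3 in replicate 1, all on Mir150, and 0 in replicate 2, while antisense reads made up 5.55% and 5.71% of the stranded counts over all microRNA genes.

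Mir150, a regulator of B and T cell maturation that acts on Myb, had 3994 and 3519 sense counts, or 729 and 988 CPM. The counting intervals, 707 to 752 and 955 to 1021 CPM, did not overlap, and the gene was higher in replicate 2. It lies on chromosome 7 (45121757 to 45121821, plus strand, ENSMUSG00000065495.1), inside no other gene. Its count was 25.9 times that of Mir142 in replicate 1 and 20.1 times in replicate 2. In a bulk tissue, fewer cells of a type and less RNA per cell cannot be told apart, and the cells that hold Mir150 here were not identified.

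Mir223, which restrains neutrophil production and activation, had 99 and 44 sense counts, or 18.1 and 12.3 CPM. The counting intervals, 14.7 to 22.0 and 8.97 to 16.6 CPM, overlapped, and the value was lower in replicate 2. The gene lies on chromosome X (96242817 to 96242926, plus strand, ENSMUSG00000076066.1) within an exon of F630028O10Rik, an antisense RNA gene. Mir155 had 5.09 and 6.77 times its count, and Mir142 1.56 and 3.98 times.

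**Figure D2:**
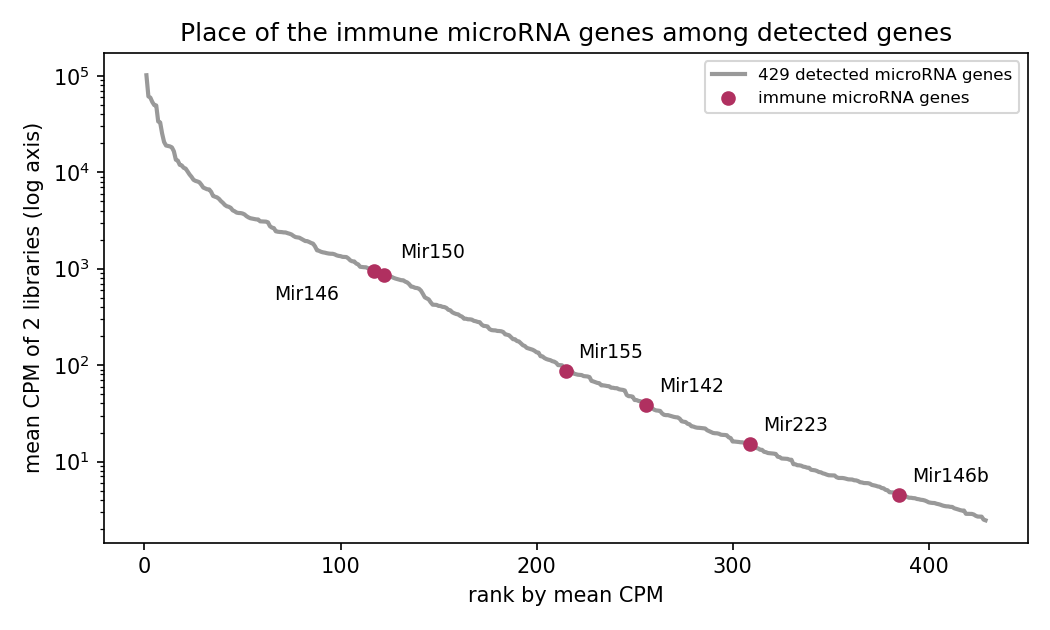
Mean CPM of 2 libraries (log axis) against rank for the 429 detected microRNA genes, with the 6 immune genes marked. Mir146 and Mir150 sit below 116 and 121 genes, Mir155 is at the median of 87.8 CPM, and Mir146b is near the low end with 384 genes above it.

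In the order of levels, the first 2 places were not resolved. Mir146 had 1.47 times the count of Mir150 in replicate 1 and 0.842 times in replicate 2. From Mir150 downwards, the values of neighbours did not overlap between the libraries: Mir150 had 7.92 and 11.8 times the count of Mir155, Mir155 3.27 and 1.70 times that of Mir142, and Mir223 5.21 and 2.20 times that of Mir146b. The order was the same per nucleotide of annotated length, from 14.6 CPM per nt for Mir146 to 0.0417 CPM per nt for Mir146b. This could not have come out otherwise. Mir146, Mir150 and Mir155 are 65 nt long and Mir142 64 nt, while Mir223 and Mir146b, the lowest, are 110 and 109 nt. Ligation and amplification favour some small RNA sequences over others, and their part in the order was not measured here. Against all detected genes, whose quartiles were 12.0 and 1131 CPM, only Mir146b lay below the lower quartile and none lay above the upper one.

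Together the 6 genes held 0.194% of the sense counts in replicate 1 (10625 counts) and 0.197% in replicate 2 (7019 counts). These shares have counting intervals of 0.190% to 0.198% and 0.192% to 0.202%, which overlap. The make-up of these similar sums differed. Mir146 made up 55.1% of the 6 genes' counts in replicate 1 and 42.2% in replicate 2, and Mir150 37.6% and 50.1%. Mir155 made up 4.74% and 4.25%, Mir142 1.45% and 2.49%, Mir223 0.932% and 0.627% and Mir146b 0.179% and 0.285%.

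**Figure D3:**
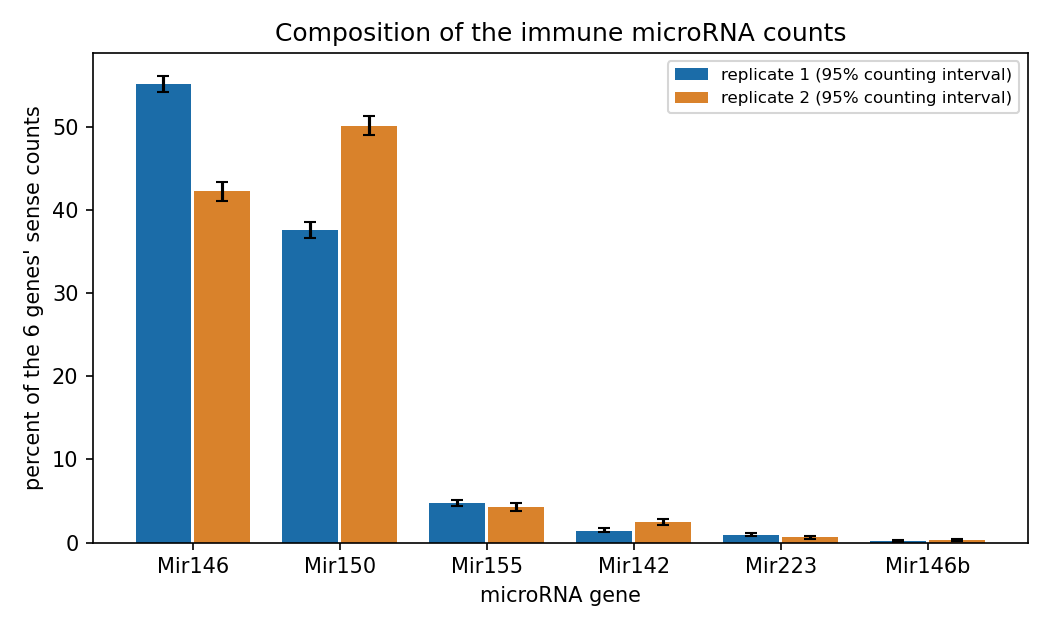
Percent of the 6 genes' sense counts that each gene held, by library, with exact 95% intervals for counting error. Mir146 is the larger part in replicate 1, at 55.1% against 37.6% for Mir150, and Mir150 in replicate 2, at 50.1% against 42.2%.

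Between the 2 libraries, 4 of the 6 genes differed by more than counting error, 2 in each direction. This was read from a two-sided exact binomial test on TMM-scaled counts over all 429 detected genes with Benjamini-Hochberg adjustment at 0.05, which compares libraries and not conditions. The same test called 61.3% of all detected genes, 28.7% higher and 32.6% lower in replicate 2, so the count of 4 is near the background. Mir150 was higher in replicate 2 by 0.38 on the log2 scale (exact test, adjusted p = 1.13e-28), and Mir142 by 0.74 (exact test, adjusted p = 8.78e-06). Mir146 was lower there, with a log2 ratio of -0.42 (exact test, adjusted p = 4.59e-39), as was Mir223, at -0.60 (exact test, adjusted p = 0.0348). The call of Mir223 rested on the setting, since the exact test gave an adjusted p of 0.0632 with library totals in place of TMM and 0.0586 with no minimum count.

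Mir155 and Mir146b did not pass, with log2 ratios of -0.20 and 0.63 (exact test, adjusted p = 0.0943 and 0.263). Genes of a similar depth give the scale for these ratios. The median absolute log2 ratio was 0.27 for 106 genes with a mean of 1000 to 10000 counts, the range of Mir146 and Mir150, and 86.8% of them were called. It was 0.35 for 102 genes with 100 to 1000 counts, the range of Mir142 and Mir155, with 58.8% called, and 0.45 for 145 genes with 10 to 100 counts, the range of Mir223 and Mir146b, with 25.5% called. The absolute ratio was above the median of its depth class for 5 of the 6 genes and below it for Mir155. A class has as many genes above its median as below, and with 6 genes nothing is read from this count. Over the 6 genes the median log2 ratio was 0.09, beside 0.05 over all detected genes.

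**Figure D4:**
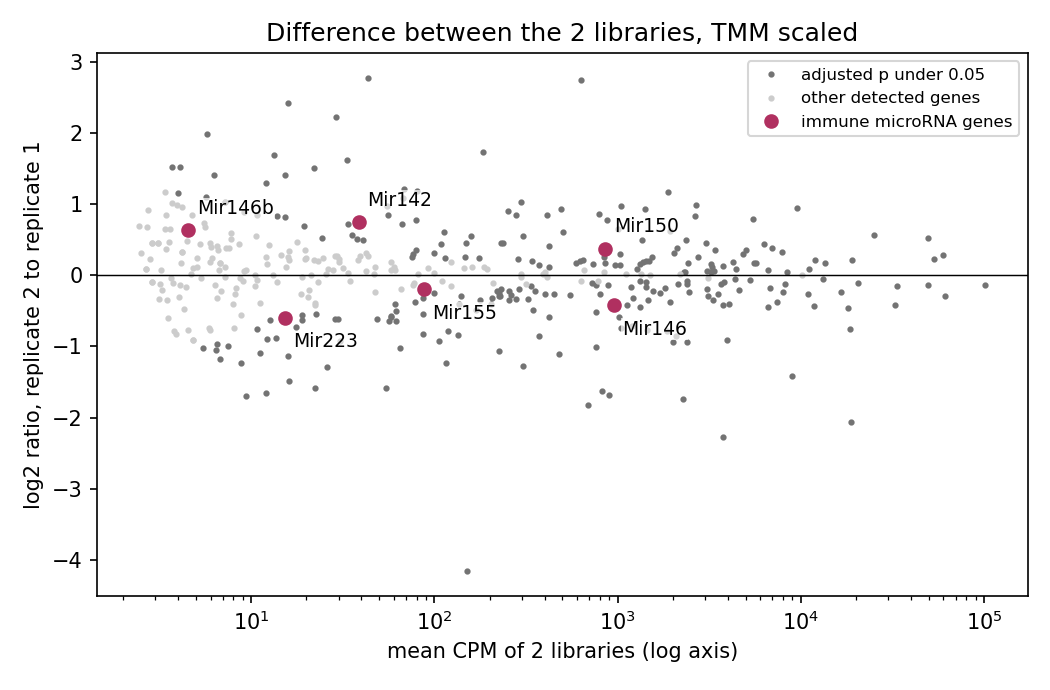
Log2 ratio of replicate 2 to replicate 1 after TMM scaling against mean CPM (log axis) for the detected genes, with the 6 immune genes marked. Mir142 at 0.74, Mir146b at 0.63 and Mir150 at 0.38 lie above 0, and Mir223 at -0.60, Mir146 at -0.42 and Mir155 at -0.20 below it.

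Blood left in the tissue would carry immune cells with it, and red cell microRNAs are markers of blood. Mir451a had 152 and 117 counts (27.7 and 32.8 CPM), Mir486 116 and 90 (21.2 and 25.3 CPM) and Mir144 36 and 22 (6.57 and 6.17 CPM). All 3 were detected, beside 19.5% of all genes, and none was at 0. Between the libraries 0 of 3 differed by the exact binomial test, with adjusted p from 0.407 to 0.849 and no unadjusted p under 0.05. The background was 61.3% over all detected genes, 58.8% at the depth of Mir451a and Mir486 and 25.5% at that of Mir144. Their summed level was 55.5 CPM in the first library and 64.3 CPM in the second, and the counting intervals of its share of the sense counts, 0.00494% to 0.00621% and 0.00562% to 0.00732%, overlapped. Counts of 5 immune genes were divided by the summed counts of these 3 genes, 304 in replicate 1 and 229 in replicate 2, not by cells. The ratios were 0.507 and 0.764 for Mir142, 0.326 and 0.192 for Mir223 and 1.66 and 1.30 for Mir155. For Mir150 they were 13.1 and 15.4 and for Mir146 19.3 and 12.9. No counting intervals were computed for these ratios. Of the 4 immune genes called, Mir142 and Mir150 were higher in replicate 2 and Mir146 and Mir223 lower. The part of blood in the levels of the 6 genes was not tested.

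Markers of endothelium and neurons ranged from levels above those of all 6 immune genes to levels below them. The endothelial Mir126a stood at 8303 and 7986 CPM. Of 12 gene copies of microRNAs enriched in neurons, used to check the tissue, 10 were detected, beside 19.5% of all genes. The 12 together held 2.71% and 2.97% of the sense counts. Mir132, Mir128-1 and Mir138-1 led, at 8030 ± 685, 6638 ± 435 and 5024 ± 1029 CPM (SD, n = 2). The 6 copies of Mir9 and Mir124 were low: Mir9-3 stood at 58.3 CPM, Mir9-1 at 16.1, Mir9-2 at 3.19, Mir124a-1 at 3.72, Mir124a-3 at 1.52 and Mir124a-2 at 0.877 CPM on average. Each of these copies shares 26 to 33 nt with another microRNA gene. The copies of Mir128 and Mir138, all above 1000 CPM, share 23 or 24 nt. Mir132 and Mir137, at 8030 and 4273 CPM on average, share 11 nt. Whether the shared length bears on the level was not tested. The number of reads lost from any of them to more than 1 matching place was not measured.

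Other microRNAs described in immune responses are for the most part known from neurons or glia as well. Of 8 genes named for macrophage and Toll-like receptor responses, 6 were detected, beside 19.5% of all genes. All 6 differed between the libraries by the same exact binomial test, 1 higher and 5 lower in replicate 2. That test called 61.3% of all detected genes and 86.8% of those with 1000 to 10000 counts. Mir125a, Mir132 and Mir342 had more than 10000 counts in each library, a range for which no share was computed. Nothing is therefore read from the count of 6. Mir125a led at 11945 ± 1588 CPM, followed by Mir132 at 8030 ± 685 CPM and Mir342 at 7433 ± 1150 CPM (SD, n = 2). Mir21a had the largest absolute log2 ratio of the 6 detected, at -1.68, with 7418 and 1571 counts (1354 and 441 CPM). Mir511, which lies in the macrophage mannose receptor gene Mrc1, had 21 and 6 counts and Mir147, induced in activated macrophages, 11 and 4. Neither reached 10 counts in replicate 2, so both were below the minimum for detection. Of 12 genes named for lymphocyte development, 10 were detected, beside 19.5% of all genes. Between the libraries 8 of the 10 differed, 4 in each direction. The background was the same 61.3% of detected genes, with 58.8% at 100 to 1000 counts and 86.8% at 1000 to 10000 counts. The leading genes of this list also lie above that range, so nothing is read from the count of 8. Mir181d, Mir181b-2 and Mir17 led, at 4581 ± 329, 4440 ± 337 and 3657 ± 111 CPM (SD, n = 2), above Mir150 in both libraries.

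For each of the 6, the detected gene nearest in log2(CPM + 1) over the 2 libraries gives a sense of scale. These were Mir455 for Mir146 (1020 and 812 CPM), Mir1249 for Mir150 (750.3 and 933 CPM), Mir669l for Mir155 (94.4 and 78.9 CPM), Mir701 for Mir142 (30.3 and 44.9 CPM), Mir7083 for Mir223 (21.5 and 13.5 CPM) and Mir7063 for Mir146b (3.65 and 5.33 CPM). With 2 libraries this likeness says only that the levels were close.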

How the data were processed

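The authors deposited 1 table of raw counts of reads for each library, with a row for each microRNA gene. Per the notes deposited with each sample, the authors used build mm10 and GENCODE M21. Which aligner, counter and filters made them is not given in the sources used here. The stranded column with more counts over gene rows was taken as sense. Replicates 1 and 2 held 5479267 and 3563226 sense counts on microRNA genes, 36.4% and 37.6% of all reads. The 4 rows without a gene stayed out of totals and tests; 43.2% and 39.3% of reads had more than 1 matching place and so entered no gene's count.

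Computed from these were CPM, exact Clopper-Pearson intervals at 95% and, for a 0, the limit of 3 counts. None of these covers more than counting error. PCR copies of the same molecule are not independent reads, and no correction by molecular identifiers was made here. The binomial test ran on 429 genes with TMM factors of edgeR 4.0.16 (0.979 and 1.02) in SciPy 1.17.1, ratios add 0.5 counts, and DESeq2 1.42.0 gave alternative size factors. A chi-square of 518 per gene, where counting error gives about 1, shows that the libraries are not copies. The p-values set the difference between these 2 libraries against counting error only, and do not measure the spread between libraries or animals.

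The 6 genes and the lists were chosen with earlier results of these data known. Named are the 6 genes, genes sharing a seed or lying opposite and the nearest gene in level. The red cell and endothelial genes and up to 3 leading genes of each other list are also named. Mir511, Mir147, Mir21a, Mir137 and the Mir9 and Mir124 copies were singled out after their values were seen.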

Additional observations from a re-analysis of the deposited data

How the results depend on the processing

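No paired analysis was possible because the series has a single group. The log2 ratios of Mir146, Mir150, Mir155, Mir142 and Mir146b kept their direction and their side of the threshold under each alternative that gave a value. Mir223 no longer passed with library totals (-0.54) or with no minimum count (-0.60). The members' summed share was 0.0723% with all reads as the denominator, 0.381% without the 10 most abundant genes and 0.204% of counts made without regard to strand, where by construction the denominator changes. It ran from 0.194% to 0.197% without 1 replicate. Without regard to strand Mir142 falls to 0, so 3 of the 6 genes kept their place in the order and Mir142 has no ratio; 5 were detected, a count chosen after seeing the data. At a minimum of 100 counts 4 of the 6 genes pass, and Mir223 and Mir146b have no ratio. With library totals, 137 genes were called higher and 123 lower in replicate 2, against 123 and 140 with TMM. Depth limits Mir146b and Mir223 most. Leaving out a replicate leaves no ratio to test.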
